A study of Mus musculus with 6 samples.

Results

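This report concerns 9 genes of the transforming growth factor-beta (TGF-β) pathway in the mouse kidney: the ligand genes *Tgfb1*, *Tgfb2* and *Tgfb3*, the receptor genes *Tgfbr1* and *Tgfbr2*, the signal transducers *Smad2*, *Smad3* and *Smad7*, and the target gene *Ccn2*. They were chosen by name, as the matrix rows with these symbols, and make up 9 of the 26903 genes listed in any library. All 9 were listed in all 6 libraries. Single-cell RNA sequencing was run on renal cortex, at an age of 9 months, from 3 wild type (WT) mice and 3 mice with a global knockout (KO) of *Prdm16*, a transcriptional regulator, with 1 library per mouse. The KO mice lacked exon 2 of *Prdm16* in every tissue, removed with CRISPR-Cas9, so an effect within 1 cell class cannot be told apart from an effect that reached it from other cells or organs. Expression was compared between cell classes and, within each class, between the WT and *Prdm16* KO libraries.

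TGF-β is secreted in a latent form, bound to latency proteins and stored in the matrix until integrins or proteases release it. The active ligand binds the type II receptor, which recruits and phosphorylates the type I receptor, and the type I receptor phosphorylates SMAD2 and SMAD3. These join SMAD4, enter the nucleus and control transcription, while SMAD7 is induced by the signal and blocks the type I receptor. In the kidney the pathway is known for driving matrix production in fibrosis and glomerular sclerosis, and it also acts on podocytes, endothelium, immune cells and tubular epithelium.

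Cells were kept at 500 to 60000 unique molecular identifiers (UMIs, 1 per captured transcript), 200 to 8000 genes and at most 50% mitochondrial UMIs, which left 28488 cells, between 3538 and 6276 per library, with 23107708 to 35366031 UMIs per library. All mice were labelled male, yet WT replicate 2 and KO replicate 1 held the female transcript *Xist*, at 297 and 306 CPM. CPM are counts scaled to the total of the cells summed. Both libraries held nearly no UMIs of 4 Y-linked genes. Tests within classes, between classes and over all retained cells were therefore repeated without them. Of the single clusters tested further below, only 1, 2, 3, 9, 11, 18 and 19 were repeated in this way. Of the retained barcodes, 10 occurred in more than 1 library, and rank correlations of all genes between libraries ran from 0.945 to 0.984. Levels of *Prdm16* over all retained cells were 32.4, 26.7 and 27.1 CPM in WT libraries against 21.0, 24.9 and 23.4 in KO. These 3′ tags lie outside the deleted exon and therefore do not check the knockout. Of 27 clusters, 25 were named from marker genes as 15 cell classes, where a name ending in "-like" means only that the markers fit, and 12 of these, each with 10 or more cells per library, were compared. Along the nephron and collecting duct they are PCT-like (proximal convoluted tubule), DLH-like (descending limb), LOH-like (loop of Henle), DCT-like (distal convoluted tubule), CNT-like (connecting tubule), PC-like (principal cells) and IC-like (intercalated cells). The others are the podocyte-like class, the endothelial-like class, a stromal and mesangial-like class, and among leukocytes the macrophage-like and the T and NK-like classes. The DLH-like name rests on only 4 markers, *Aqp1*, *Bst1*, *Cryab* and *Fst*. None of the markers of this class was among the leading genes of its cluster, which began with *Dkk3*, *Osr2*, *Cpe* and *Cp*. With finer clustering, a cluster of 166 cells that these 4 genes also led in part stayed unnamed. The identity of the DLH-like cells is therefore uncertain.

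Each level below is in CPM of the UMIs summed over a class, as the mean ± SD over the 6 libraries, and is compared between classes for 1 gene at a time, since 3′ counts of different genes are not on 1 scale. Classes are ordered by level, and neighbors in the order are said to differ only where the ranges of the 6 libraries did not overlap. These levels are a description without a test, because *Ccn2* and *Tgfb2* were among the 2000 variable genes that clustered the cells. Barcodes with at most 100 UMIs, which hold free RNA, gave a background level for each gene.

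Of the ligands, *Tgfb1* (chr7:25687002-25705077, GRCm38, plus strand), the isoform best known from immune cells and fibrosis, was highest in T and NK-like cells (48.3 ± 11.5 CPM) and macrophage-like cells (46.7 ± 18.1 CPM), whose ranges overlapped. Endothelial-like cells followed at 22.6 ± 2.99 CPM and stromal and mesangial-like cells at 16.7 ± 7.88 CPM. The range in the stromal class lay above that of the next class, the PC-like cells at 2.32 CPM, and in the 8 tubular and podocyte-like classes the level never exceeded the free RNA range of 3.59 to 7.73 CPM. Thus *Tgfb1* transcripts were read above background in the immune, endothelial and stromal classes only. *Tgfb2* (chr1:186622792-186705989, minus strand), a ligand needed for heart and kidney development, was highest in endothelial-like cells, at 166 ± 100 CPM, followed by DLH-like cells at 51.1 ± 32.4 CPM and stromal and mesangial-like cells at 30.6 ± 15.1 CPM. None of these neighbors was separated, since the endothelial libraries alone ran from 53.7 to 335 CPM. *Tgfb3* (chr12:86056745-86079041, minus strand), the third ligand, had the fewest UMIs. It reached 28.0 ± 16.4 CPM in stromal and mesangial-like cells and 13.2 ± 7.31 CPM in macrophage-like cells, on 68 and 35 UMIs, and it was listed at 0 in the PC-like and the T and NK-like cells.

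Of the receptors, *Tgfbr1* lay above its free RNA range in 3 of the 12 classes and *Tgfbr2* in 7. *Tgfbr1* (chr4:47353222-47414931, plus strand) encodes the type I receptor kinase. Macrophage-like cells held 301 ± 57.4 CPM, a range above every other class, followed by PC-like cells (103 ± 14.8 CPM) and CNT-like cells (86.3 ± 8.80 CPM), which overlapped each other and lay above the DCT-like cells (55.4 ± 4.02 CPM). The other 8 classes overlapped in sequence from the DLH-like cells (48.0 ± 14.9 CPM) down to the PCT-like cells (12.3 ± 8.78 CPM), and none of these had a mean above the free RNA mean of 52.2 CPM. *Tgfbr2* (chr9:116084293-116175360, minus strand) encodes the type II receptor, the subunit that binds the ligand first. Endothelial-like cells held 432 ± 19.7 CPM, again above the range of every other class. Macrophage-like (248 ± 66.0 CPM), stromal and mesangial-like (215 ± 48.8 CPM), PC-like (199 ± 15.7 CPM) and T and NK-like cells (188 ± 31.4 CPM) overlapped one another, and the last lay above podocyte-like cells (73.2 ± 26.0 CPM). LOH-like cells had the lowest mean of *Tgfbr2*, 12.2 ± 1.69 CPM, below the free RNA range of 29.8 to 39.2 CPM.

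Among the transducers, *Smad2*, which encodes a SMAD phosphorylated by the type I receptor, had the smallest ratio between its highest and lowest class mean of the 9 genes. Its class means ran from 64.6 ± 13.2 CPM in DLH-like cells to 17.4 ± 2.23 CPM in DCT-like cells, with no gap between neighbors. *Smad3* (chr9:63646767-63757994, minus strand), the other receptor-regulated SMAD and the one that binds DNA directly, had its highest mean in T and NK-like cells, 69.6 ± 48.1 CPM, but there the libraries ran from 10.1 to 144 CPM. *Smad7*, the inhibitory SMAD, reached 439 ± 70.2 CPM in T and NK-like cells, above the range of every other class. Endothelial-like cells followed at 164 ± 48.8 CPM, and podocyte-like cells had the lowest mean, 16.4 ± 1.65 CPM, under the range of each other class. *Ccn2* (connective tissue growth factor; chr10:24595442-24598683, plus strand), a secreted matrix protein gene induced by TGF-β and by mechanical cues, was 3552 ± 930 CPM in stromal and mesangial-like cells, 668 ± 201 CPM in DLH-like cells and 332 ± 61.5 CPM in podocyte-like cells. Each of these ranges lay above the next, whereas in the other 9 classes means were at most 86.7 CPM, within or below the free RNA range of 54.5 to 95.9 CPM. Other genes lie antisense to *Tgfb2*, *Tgfb3* and *Ccn2*, among them *Ttll5* at *Tgfb3*.

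**Figure D1:**
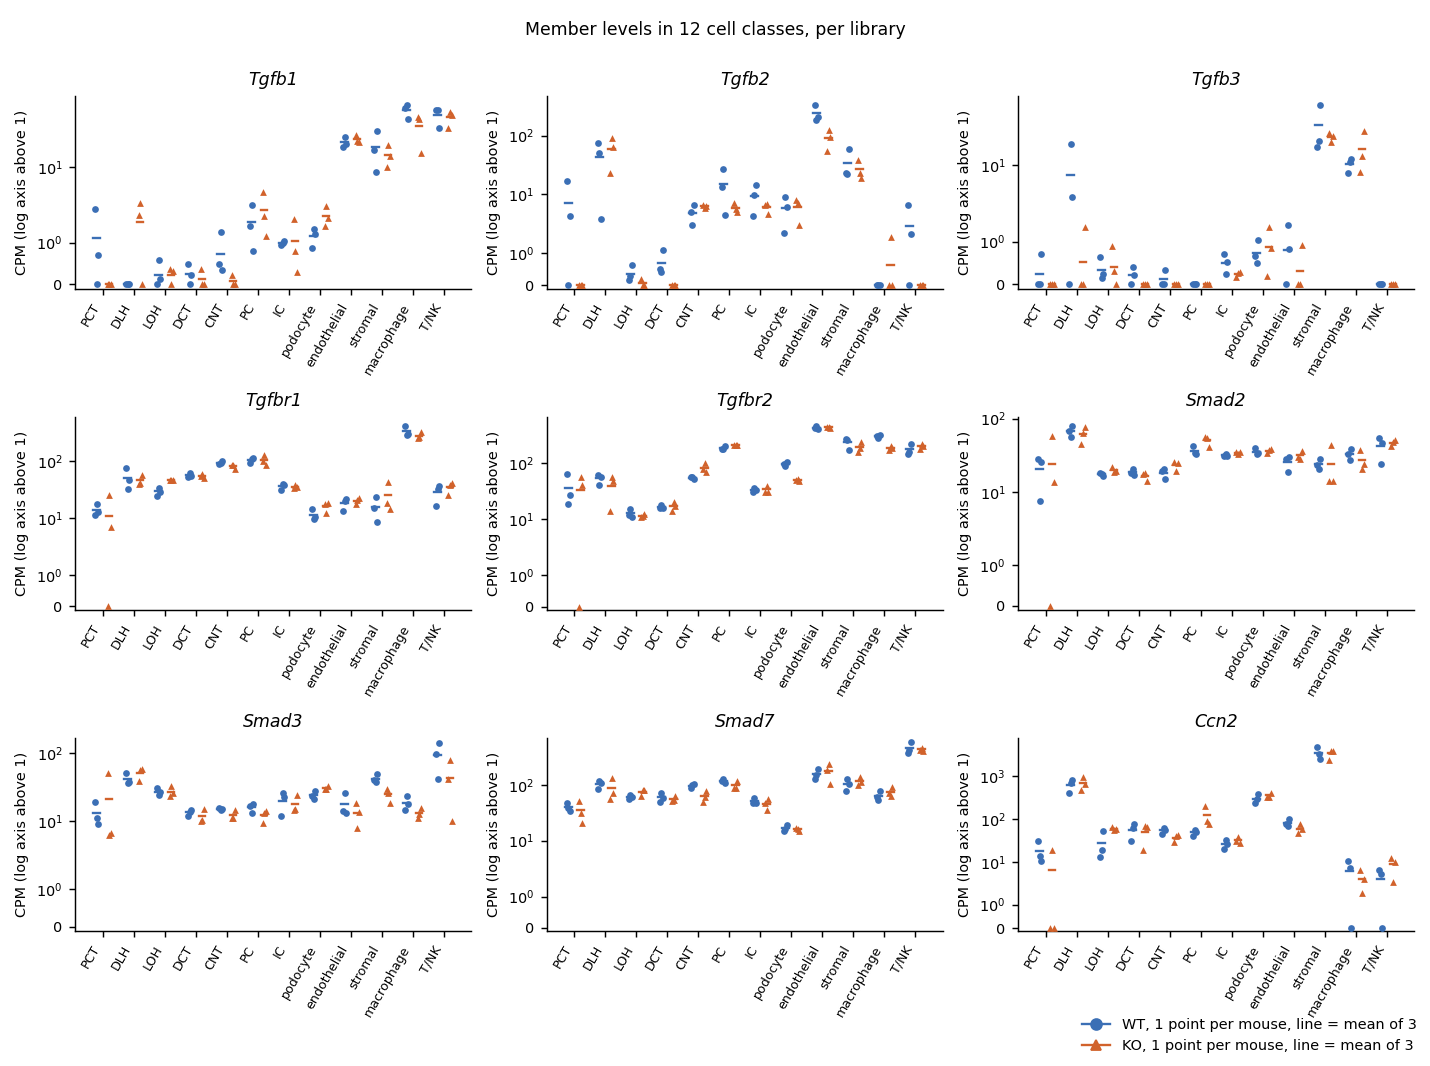
Levels of the 9 genes in the 12 classes named from markers, in CPM on an axis that is linear up to 1 and logarithmic above; blue circles are WT libraries, orange triangles are KO libraries, and lines are means of 3. *Tgfbr2* was highest in the endothelial class, *Tgfbr1* in the macrophage class, *Smad7* in the T/NK class and *Ccn2* in the stromal class, each with all 6 libraries above every other class.

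Genes whose class means were most like those of each member were found over the 12 classes, among 10143 genes, by Pearson's r of log2(CPM + 1), given for the first. For *Tgfb1* these were *Srgn* (0.97), *Ifi208* and *AU020206*, all highest in T and NK-like or macrophage-like cells. For *Tgfb2* they were *Lsm7* (0.92), *Efnb2* and *Trip10*, for *Tgfb3* *Itga8* (0.94), *Mrc1* and *Hdac9*, for *Tgfbr1* *Xylt1* (0.90) and *Naaa*, and for *Tgfbr2* *Lpcat1* (0.94), *Gtpbp2* and *Trim30a*. For *Smad2* they were *Cry1* (0.92), *Ptges3* and *Map2k3*, for *Smad3* *Sik1* (0.92), *Prrt1* and *Glipr2*, and for *Smad7* *Itpkb* (0.92), *Galnt7* and *Hmgn2*. *Ccn2* was most like *Snx33* (0.99), *Atp1b2* and *Ate1*, all highest in stromal and mesangial-like cells. The class means come from the same 6 libraries and differ in depth, and the correlations are given as a description only.

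To ask whether loss of *Prdm16* was accompanied by different expression of the pathway, UMIs were summed per library and class and tested with edgeR's quasi-likelihood test across the 3 WT and 3 KO libraries, with p-values adjusted over all genes tested in a class. In the *Prdm16* KO mice *Tgfbr2* fell in podocyte-like cells, and *Tgfbr1* rose in LOH-like cells. *Ccn2* in PC-like cells and *Tgfbr2* in CNT-like cells also rose, but both of these calls were lost under several of the alternatives. No ligand or SMAD gene passed the threshold in a class. Of the 108 pairs of gene and class, 71 held enough UMIs to be tested, and 4 of them, in 3 genes, had an adjusted p under 0.05, 3 higher and 1 lower in KO. Over all genes, 1.46% of 92178 pairs passed the same threshold. At an unadjusted p under 0.05 there were 14 of the 71 pairs, where over all genes 10779 of 92178 were, and 36 of the 71 log2 fold changes were positive. The WT and KO libraries did not overlap in 15 of the 71 pairs, where 16.4% of the pairs of all genes did not overlap. How many cells a class held and how much RNA of a gene a cell held cannot be told apart in the sum over all cells, but within a class the level is relative to the RNA of that class.

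Over all retained cells together, none of the 9 genes passed the threshold, none had an unadjusted p under 0.05, and none passed with DESeq2, while 1.07% of all genes did pass in edgeR. Their log2 fold changes lay between -0.39 (*Tgfb2*, SE 0.18) and 0.16 (*Smad2*, SE 0.084). Within classes, the share of all tested genes called set the background for each count. In LOH-like cells 1 of 6 tested members passed against 4.01% of genes, in CNT-like cells 1 of 7 against 2.61%, in PC-like cells 1 of 7 against 2.51%, and in podocyte-like cells 1 of 7 against 1.94%. No member passed in the PCT-like (1 tested, background 0.0324%), DLH-like (7 tested, 0.045%), DCT-like (6 tested, 1.03%) or IC-like cells (7 tested, 0.466%). The same held for the endothelial-like (8 tested, 0.194%), stromal and mesangial-like (4 tested, 0.0538%), macrophage-like (5 tested, 0.435%) and T and NK-like cells (6 tested, 0.0257%). These 8 classes include those with the fewest cells. *Tgfb3* had too few UMIs to be tested in any class, so a difference in it was not detectable at this depth.

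**Figure D2:**
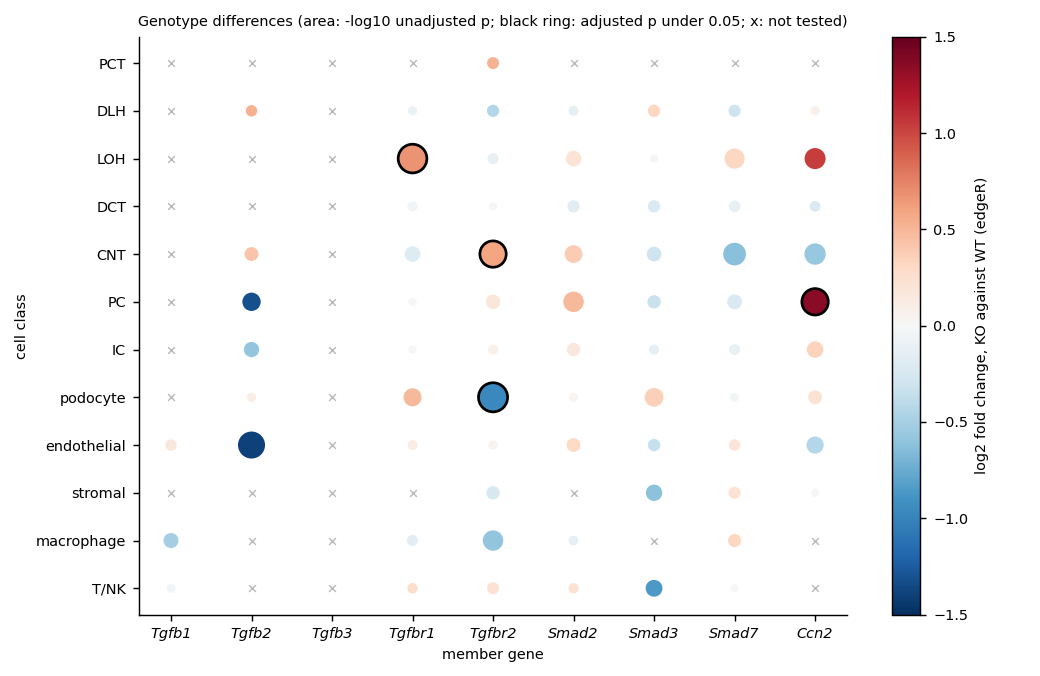
Differences of the 9 genes between KO and WT in the 12 classes; color is the log2 fold change (KO against WT), the area of a disc grows with −log10 of the unadjusted p, a black ring marks an adjusted p under 0.05 and x marks pairs that were not tested. The 4 ringed pairs are *Tgfbr2* in the podocyte and CNT classes, *Tgfbr1* in the LOH class and *Ccn2* in the PC class.

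The ligands are taken first. *Tgfb2* had the most negative fold change of all tested pairs of the members, in endothelial-like cells, but did not pass the threshold there. Its levels were 335, 185 and 205 CPM in WT libraries against 53.7, 125 and 93.4 in KO. No KO library reached the lowest WT library. The edgeR log2 fold change of -1.40 (SE 0.29) had an adjusted p of 0.0768, and it passed in 4 of 19 alternative settings, among them DESeq2 (adjusted p 0.000786) and leaving out WT replicate 2 (0.0319). In the endothelial-like class the sum of the neutrophil markers was 1.64 to 4.73 CPM in WT libraries against 17.4 to 48.7 in KO, without overlap, and its part in the result was not tested. Endothelial-like cells were made up of 4 clusters, and after seeing these values the members were tested again within single clusters. Over all genes 1.41% of pairs of gene and cluster passed there, and 8 of 111 pairs of the members did, 4 higher and 4 lower.

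*Tgfb2* was concentrated in 1 of these clusters, number 11, whose leading genes were *Thbs2*, *S100a4*, *Fbln2*, *Sox17* and *Tgfb2* itself. Cluster 11 held 272, 185 and 185 of the 604, 611 and 688 WT cells of the class, and 374, 248 and 202 of the 1492, 965 and 682 KO cells. The class level of *Tgfb2* also moves with this share, whose part was not tested. Within the cluster, *Tgfb2* stood at 554, 356 and 426 CPM in WT libraries against 106, 238 and 177 in KO. Again the groups were apart, and the difference passed in edgeR (a log2 fold change of -1.32 with SE 0.25, adjusted p 0.0367, where 0.38% of genes passed). The call was lost without WT replicate 3 (adjusted p 0.0698), KO replicate 1 (0.165) or KO replicate 3 (0.246), and when the cells were clustered without the members and the pathway genes (0.0508). That last clustering found nearly the same cluster, with 97.5% of its cells. *Tgfb2* helped to define cluster 11, whereas the value of -1.29 comes from a clustering that did not use it. That value was still not independent of cluster 11, since the matching cluster was picked as the one with most of its cells. The summed level of 17 dissociation stress genes in cluster 11 was 13075 to 25798 CPM in WT libraries against 26421 to 29356 in KO, also without overlap, and its part in the result was not tested.

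The promoter of *Tgfb2* is shown with those of both receptors, because these are the ligand and receptor genes that passed the threshold in a class or cluster. The sequences are the 250 bases before the RefSeq transcript start, read on the gene's strand (GRCm38.p6), at chr1:186705990-186706239 (minus) for *Tgfb2*, chr9:116175364-116175613 (minus) for *Tgfbr2* and chr4:47352972-47353221 (plus) for *Tgfbr1*. Capitals mark matches, on either strand, to the SMAD element CAGAC, the AP-1 site TGANTCA, the GC box GGGCGG, the CCAAT box CCAAT, the TATA box TATAAA or the TEAD site GGAATG.
Tgfb2: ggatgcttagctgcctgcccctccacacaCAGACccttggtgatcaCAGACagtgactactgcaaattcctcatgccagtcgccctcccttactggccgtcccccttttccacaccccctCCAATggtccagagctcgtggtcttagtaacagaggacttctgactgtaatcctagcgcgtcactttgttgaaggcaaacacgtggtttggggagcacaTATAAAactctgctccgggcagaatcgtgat
Tgfbr2: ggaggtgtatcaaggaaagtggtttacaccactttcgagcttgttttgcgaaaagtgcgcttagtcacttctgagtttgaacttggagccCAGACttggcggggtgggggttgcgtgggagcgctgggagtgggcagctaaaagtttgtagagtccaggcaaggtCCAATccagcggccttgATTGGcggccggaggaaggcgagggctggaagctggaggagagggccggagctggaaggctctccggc
Tgfbr1: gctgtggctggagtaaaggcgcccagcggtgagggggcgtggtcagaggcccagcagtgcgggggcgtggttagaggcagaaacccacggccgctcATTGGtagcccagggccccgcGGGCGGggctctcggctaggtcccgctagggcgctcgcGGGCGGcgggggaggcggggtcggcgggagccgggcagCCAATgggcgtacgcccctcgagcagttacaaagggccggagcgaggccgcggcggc
The 3 windows differ in kind. That of *Tgfb2* held a TATA box 31 bases before the start, 2 SMAD elements (221 and 204 bases before it) and 1 CCAAT box. That of *Tgfbr2* held 1 SMAD element, 160 bases before the start, and 2 CCAAT boxes (85 and 68 bases before it), but no TATA box. That of *Tgfbr1* had the highest GC content (74.8%, against 58.4% for *Tgfbr2*, 53.6% for *Tgfb2* and a median of 52.4% over 32851 windows), with 2 GC boxes and 2 CCAAT boxes. Such short motifs are common: of all windows 42.2% held the SMAD element, 33.8% the CCAAT box, 32.7% the GC box, 12.6% the TEAD site, 12.4% the TATA box and 6.75% the AP-1 site. The matches describe the letters and do not show that a factor binds.

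*Tgfb2* in PC-like cells gave 13.3, 27.0 and 4.36 CPM in WT libraries against 7.15, 5.62 and 4.97 in KO, near the free RNA range of 3.62 to 8.72 CPM apart from 2 of the WT libraries (a log2 fold change of -1.31, adjusted p 0.325). *Tgfb1* could be tested in 3 classes. It gave 61.0, 68.1 and 44.5 CPM in WT libraries against 46.3, 44.6 and 15.7 in KO in macrophage-like cells, where the groups overlapped (adjusted p 0.635). In endothelial-like and in T and NK-like cells its log2 fold changes were 0.17 (SE 0.22) and -0.058 (SE 0.42).

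Of the receptors, *Tgfbr2* in podocyte-like cells gave the lowest adjusted p of all tested pairs of the members. Podocytes are the epithelial cells that form the filtration slits of the glomerulus. Levels were 97.4, 88.3 and 104 CPM in the WT libraries and 49.4, 52.5 and 47.9 CPM in the KO libraries. The groups were far apart, and the spread within each was small. This was a log2 fold change of -0.97 (SE 0.11, adjusted p 0.00128 in edgeR), resting on 1365 UMIs in WT and 557 in KO. It passed in all 19 alternative settings, in which the log2 fold change ran from -1.03 to -0.85 and the adjusted p reached at most 0.0103. Among these 19, the setting for doublets equals the reported one and could not differ, here and in the other counts out of 19. The KO levels lay above the free RNA range of 29.8 to 39.2 CPM. Endothelial-like cells, where *Tgfbr2* was highest, gave close levels of 421, 461 and 404 CPM in WT libraries against 442, 438 and 425 in KO. Here the log2 fold change was 0.042 (SE 0.13, adjusted p 0.959).

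The fall of *Tgfbr2* was seen in both large podocyte-like clusters. In cluster 1 the levels were 91.7, 88.8 and 103 CPM in WT libraries against 44.4, 51.7 and 45.8 in KO (a log2 fold change of -0.98, with edgeR adjusted p 0.0011, background 1.52%). In cluster 2 they were 103, 90.0 and 118 CPM in WT libraries against 51.3, 54.1 and 58.3 in KO (a log2 fold change of -0.96, adjusted p 0.0014, background 3.21%). Both calls held with each library left out in turn and without the members in the clustering. The third cluster, 9, with fewer UMIs per cell, gave 86.6, 68.8 and 71.8 CPM in WT libraries against 48.6, 49.3 and 36.4 in KO, without overlap but short of the threshold (a log2 fold change of -0.72, adjusted p 0.38).

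The genotype effect on *Tgfbr2* in podocyte-like cells was also tested against the mean effect in the other 11 classes. The difference was -0.95 on the log2 scale (SE 0.17, edgeR adjusted p 0.000514), where 0.414% of genes passed in this class, and it passed in all 13 alternatives run. Of all pairs of the members only this one and that of *Tgfbr2* in CNT-like cells passed this test, and 0.363% of pairs did over all genes. Pairs of the 3 ligands could not be judged in it, since they gave no usable fit (SE of 3.51 or more in every class).

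Other measures moved in the same cells. The summed level of 8 podocyte markers, all detected, was 22688 to 26797 CPM in WT libraries against 19200 to 21580 in KO, and that of 13 mitochondrial genes was 113218 to 124121 CPM in WT libraries against 134712 to 138700 in KO. Neither pair of ranges overlapped, and their part in the result was not tested. With cells limited to 30% mitochondrial UMIs the log2 fold change of *Tgfbr2* was -0.96 (adjusted p 0.00156). For endothelial cells, the class with the highest *Tgfbr2* level, the sum of 9 markers in the podocyte-like cells, all detected, was 21.4 to 28.7 CPM in WT libraries. In KO libraries it was 27.8 to 43.6 CPM, with overlap, and its part in the result was not tested. The stress list overlapped between the groups.

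**Figure D3:**
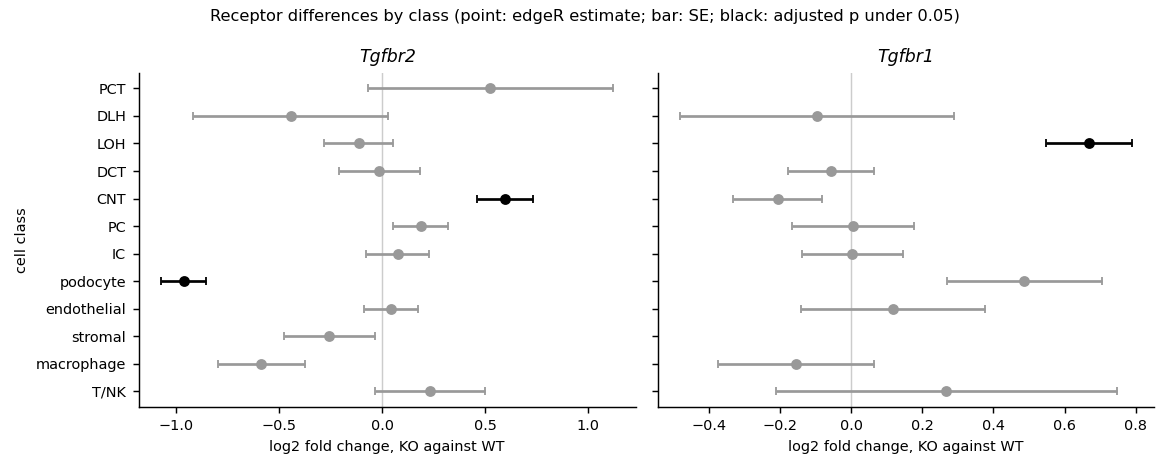
Differences of the receptor genes between KO and WT in each class; points are edgeR log2 fold changes (KO against WT), bars are standard errors, and black marks an adjusted p under 0.05. *Tgfbr2* was lower in the podocyte class and higher in the CNT class, and *Tgfbr1* higher in the LOH class, while the other classes did not pass the threshold.

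In CNT-like cells, the segment that fine-tunes calcium and sodium uptake, *Tgfbr2* differed in the other direction. Levels were 57.3, 56.9 and 51.6 CPM in WT libraries against 79.4, 100 and 70.5 in KO. Every KO library lay above every WT library, although the KO libraries were spread widely. This was a log2 fold change of 0.60 (SE 0.14, adjusted p 0.0309 in edgeR), and against the mean of the other classes the difference was 0.74 (SE 0.17, adjusted p 0.0395, where 0.17% of genes passed). This call was fragile. It was lost when any 1 of the 6 libraries was left out (adjusted p 0.0528 to 0.145, log2 fold change 0.46 to 0.67), and it passed in 9 of 19 alternatives. The difference against the other classes passed in 4 of 13. In these cells the sum of 6 CNT markers was 48866 to 56790 CPM in WT libraries against 36484 to 47680 in KO, and that of 8 podocyte markers 49.3 to 67.0 and 77.9 to 112 CPM, neither with overlap, and their part was not tested. The stress list overlapped (10271 to 12737 and 10331 to 13403 CPM), and 1 of its 17 genes, *Btg2*, passed, with a log2 fold change of -0.77 (adjusted p 0.0477). PC markers, from the neighboring segment with more *Tgfbr2*, overlapped between the groups (10740 to 11878 and 8235 to 11808 CPM).

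*Tgfbr1* rose in LOH-like cells, the segment that reabsorbs salt without water. Levels were 24.4, 33.5 and 28.8 CPM in WT libraries against 45.8, 45.4 and 46.0 in KO. The KO libraries were nearly equal and all above the WT libraries. This was a log2 fold change of 0.67 (SE 0.12, adjusted p 0.00937 in edgeR) on 617 UMIs in WT and 981 in KO, and 18 of 19 alternatives passed. The exception was a limit of 30% mitochondrial UMIs (a log2 fold change of 0.47, adjusted p 0.799), which left 896 of the 3958 LOH-like cells. The largest single cluster, 3, gave 22.0, 29.4 and 27.8 CPM in WT libraries against 47.4, 45.8 and 47.3 in KO (a log2 fold change of 0.81, adjusted p 0.0038, background 3.59%), and the call held without each library in turn. In cluster 18 the log2 fold change was 0.48 (adjusted p 0.174), and in cluster 19, led by the macula densa genes *Nos1* and *Ptgs2*, it was 0.57 (adjusted p 0.421).

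The levels in the LOH-like class lay within or below the free RNA range of *Tgfbr1*, 38.0 to 64.3 CPM. That range overlapped between WT (44.1 to 64.3 CPM) and KO libraries (38.0 to 62.5 CPM). The summed level of the 17 stress genes in LOH-like cells was 11044 to 14760 CPM in WT libraries against 15910 to 18522 in KO, without overlap, 15 of the 17 had a positive log2 fold change, and 1, *Nr4a1*, passed the threshold, with a lower level in KO. Markers of macrophages, the class with the highest *Tgfbr1* level, were at 4.17 to 7.43 CPM in WT libraries against 6.06 to 8.40 in KO for the sum of 8 genes, of which 7 were detected and *Cx3cr1* was at 0. The part of the stress genes and of free RNA in the result was not tested. Against the mean of the other classes the effect on *Tgfbr1* in LOH-like cells was 0.60 (SE 0.19) and did not pass (adjusted p 0.389), so it was not shown to differ from that in other classes.

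**Figure D4:**
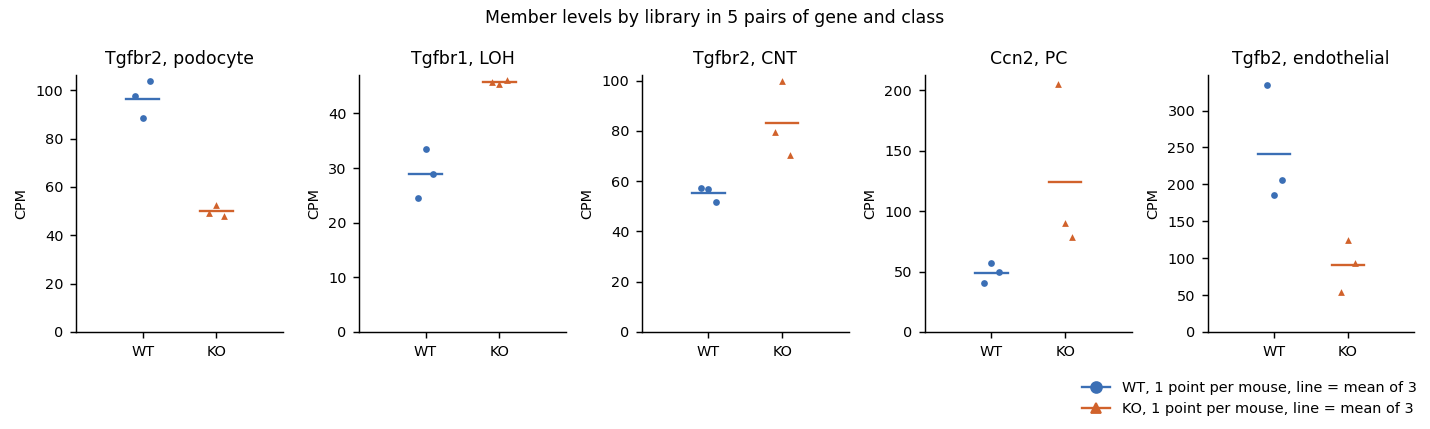
Levels per library, in CPM from 0, for the 4 pairs of gene and class that passed the threshold and for *Tgfb2* in the endothelial class, which did not; each point is 1 mouse, the line is the mean of 3, and each panel has its own vertical scale. WT and KO did not overlap in any of the 5 pairs, and 1 KO library, replicate 1, stood at 205 CPM for *Ccn2* in the PC class, above the other KO libraries.

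*Tgfbr2* in macrophage-like cells also separated the groups, at 309, 287 and 323 CPM in WT libraries against 174, 204 and 189 in KO, but did not pass among all genes (a log2 fold change of -0.59 with SE 0.21 and, in edgeR, an adjusted p of 0.325, none of 19 alternatives). *Tgfbr1* in podocyte-like cells gave 14.2, 9.42 and 10.3 CPM in WT libraries against 17.6, 12.3 and 18.4 in KO, with overlap and below the free RNA range (adjusted p 0.259). In the other 9 classes *Tgfbr2* had log2 fold changes from -0.44 to 0.53, and none passed.

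None of the SMAD genes passed in a class. *Smad7* in CNT-like cells came nearest, with 87.2, 98.2 and 103 CPM in WT libraries against 48.3, 61.5 and 76.0 in KO. No KO library reached the WT libraries. This was a log2 fold change of -0.62 (SE 0.19, adjusted p 0.12 in edgeR), 3 of 19 alternatives passed, and without a mitochondrial limit the sign turned (0.23, adjusted p 0.547). In LOH-like cells *Smad7* gave 55.6, 64.9 and 60.8 CPM in WT libraries against 63.8, 81.2 and 79.7 in KO, with overlap (a log2 fold change of 0.32 with SE 0.12, adjusted p 0.175), and at most 30% mitochondrial UMIs it was -0.0023 (adjusted p 0.999). Within the class, cluster 3 gave 59.6, 66.3 and 63.8 CPM in WT libraries against 76.1, 87.3 and 96.0 in KO, without overlap (0.45, adjusted p 0.0539), and cluster 4 a value of -0.11 (adjusted p 0.981). *Smad3* in podocyte-like cells gave 23.4, 21.2 and 27.6 CPM in WT libraries against 29.9, 30.4 and 33.4 in KO, without overlap (a log2 fold change of 0.36, adjusted p 0.228). *Smad2* in PC-like cells gave 42.1, 34.1 and 33.3 CPM in WT libraries against 55.6, 55.1 and 41.0 in KO, with overlap (a log2 fold change of 0.48, adjusted p 0.207). Neither of these last pairs passed in any alternative.

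The target gene *Ccn2* rose in PC-like cells, the water-handling cells of the collecting duct. Levels were 40.8, 56.9 and 49.5 CPM in WT libraries against 205, 89.9 and 78.3 in KO. Every KO library exceeded every WT library, with KO replicate 1 far above the rest. This was a log2 fold change of 1.35 (SE 0.29, adjusted p 0.0306 in edgeR), on 383 UMIs in WT and 464 in KO. It passed in 12 of 19 alternatives. Without KO replicate 1 it was 0.81 (adjusted p 0.0699), and the call was also lost without WT replicate 1 (0.0876), WT replicate 2 (0.0588) or WT replicate 3 (0.0753). The call was lost as well without both libraries with *Xist*, WT replicate 2 and KO replicate 1. With a block for these libraries the log2 fold change was 1.26 (edgeR adjusted p 0.00708). At a limit of 30% mitochondrial UMIs it was 1.21 (adjusted p 0.197), and with no mitochondrial limit 0.28 (adjusted p 0.408). Of the 17 stress genes, *Fos* and *Jun* rose in the same cells, with log2 fold changes of 0.84 and 0.87, and the sum of the list was 11605 to 14224 CPM in WT libraries against 13714 to 20139 in KO. The sum of 12 stromal markers, of which 11 were detected and *Col3a1* was at 0, overlapped (318 to 347 CPM and 275 to 340 CPM), while that of 6 CNT markers was lower in KO (3183 to 4690 and 1368 to 1999 CPM). Only KO replicate 1 lay above the free RNA range of 54.5 to 95.9 CPM, and the other 5 libraries lay within or below it. The part of these measures in the result was not tested, and against the mean of the other classes the effect was 1.33 (SE 0.40, adjusted p 0.177).

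In 2 single clusters *Ccn2* differed as well. In endothelial-like cluster 11 it stood at 78.3, 53.7 and 63.4 CPM in WT libraries against 9.40, 3.58 and 9.34 in KO, on 94 UMIs in WT and 14 in KO (8, 2 and 4 per library). The groups were widely separated, with a log2 fold change of -3.03 (SE 0.36, edgeR adjusted p 0.00126). The call held without each library in turn (adjusted p at most 0.0106) and when the cells were clustered without the members (-2.93, adjusted p 0.00218). The WT libraries lay in or near the free RNA range and the KO libraries far below it. Free RNA in KO libraries held 63.0 to 72.4 CPM. In the other 3 endothelial-like clusters *Ccn2* did not pass (log2 fold changes 0.62, -0.87 and -0.33), and the class as a whole gave a log2 fold change of -0.43 (adjusted p 0.6). Both genes that fell in cluster 11, *Tgfb2* and *Ccn2*, also have high levels in DLH-like cells. The sum of 8 DLH markers in the cluster, of which 5 were detected and *Corin*, *Fst* and *Sptssb* were at 0, overlapped between the groups (195 to 1035 CPM in WT libraries against 334 to 797 in KO). *Ccn2* is also high in stromal and podocyte-like cells. The sum of 12 stromal markers in the cluster, of which *Col1a1*, *Col3a1*, *Dcn* and *Lum* were at 0, overlapped (26.9 to 41.5 and 3.58 to 36.4 CPM), whereas that of 8 podocyte markers, all detected, was lower in KO without overlap (1235 to 1469 and 887 to 1195 CPM). The part of these markers and of the stress genes in the result was not tested.

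In LOH-like cluster 18 *Ccn2* gave 8.25, 11.6 and 33.3 CPM in WT libraries against 56.5, 40.0 and 47.0 in KO (a log2 fold change of 1.29 with SE 0.31 and, in edgeR, an adjusted p of 0.0412, background 2.38%). No KO library fell within the WT libraries. The call was lost with any library but WT replicate 3 left out (adjusted p 0.0657 to 0.173), and without WT replicate 3 the log2 fold change was 2.25. In the LOH-like class as a whole levels were 13.02, 19.5 and 52.1 CPM in WT libraries against 64.5, 55.8 and 58.3 in KO (a log2 fold change of 1.04 with SE 0.35, adjusted p 0.138). There WT replicate 3 stood apart from the other WT libraries, and without it the log2 fold change was 1.89 (adjusted p 0.0003). The higher stress gene sum of the KO LOH-like cells, given above, applies here too. In CNT-like cells *Ccn2* was 44.6, 61.7 and 57.1 CPM in WT libraries against 28.9, 39.4 and 41.6 in KO (a log2 fold change of -0.57, adjusted p 0.181). In the classes with the most *Ccn2* the groups overlapped, with log2 fold changes of -0.019 (SE 0.24) in stromal and mesangial-like cells, 0.081 (SE 0.32) in DLH-like cells and 0.22 (SE 0.17) in podocyte-like cells. The stromal and mesangial-like class joined clusters 21 and 23, whose shares differed between libraries (156 and 42 cells in WT replicate 2, 96 and 102 in KO replicate 1) and whose *Ccn2* levels were far apart. In cluster 21 *Ccn2* gave 6868, 4337 and 3944 CPM in WT libraries against 4888, 6253 and 5206 in KO, with overlap (0.18, adjusted p 0.869). In cluster 23 it gave 156, 127 and 89.1 CPM in WT libraries against 221, 496 and 246 in KO, without overlap but short of the threshold (1.36, adjusted p 0.36). In DLH-like cells the stress gene *Hspa1b* rose, by 2.19 on the log2 scale (adjusted p 0.038).

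**Figure D5:**
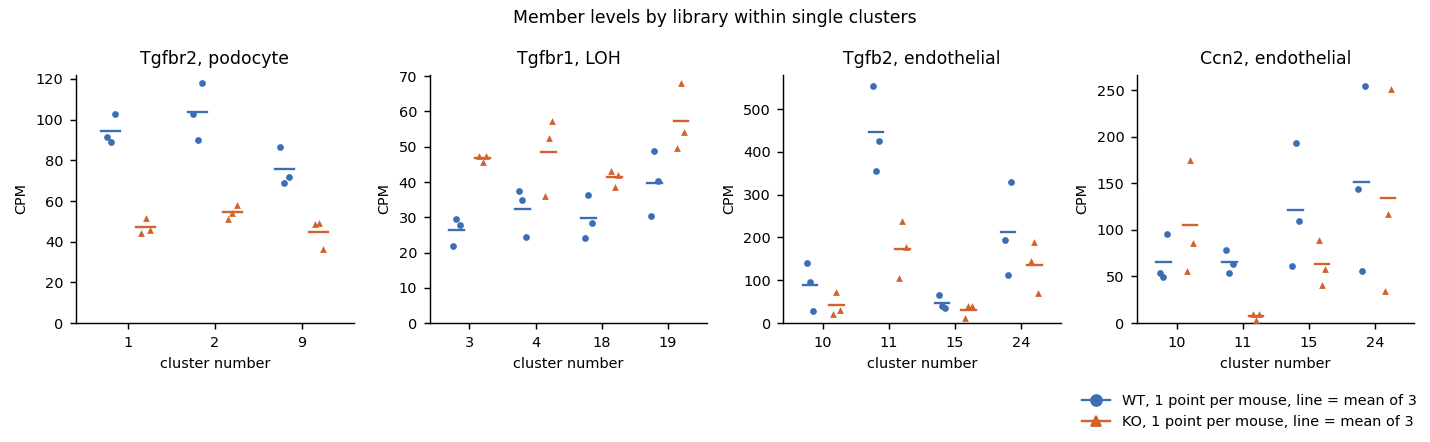
Levels per library within single clusters, in CPM from 0, for *Tgfbr2* in the podocyte clusters, *Tgfbr1* in the LOH clusters and *Tgfb2* and *Ccn2* in the endothelial clusters; each point is 1 mouse and the line is the mean of 3. In cluster 11 *Tgfb2* and *Ccn2* were lower in all KO libraries, and *Tgfbr2* was lower in KO in clusters 1, 2 and 9.

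The other genes of the pathway were followed with a list of 56, all measured. Of their 672 pairs with the 12 classes 358 were tested, and 3 passed, 1 higher and 2 lower in KO, against the 1.46% of pairs that passed over all genes. At an unadjusted p under 0.05 there were 55, beside 10779 of 92178 over all genes, and 200 of the 358 log2 fold changes were positive. Over all retained cells none of the 54 genes tested passed in edgeR, and 14 had an unadjusted p under 0.05, beside 2324 of all 15178 genes. By role, 2 of the 12 genes of ligand storage and activation and 1 of the 9 other receptors and coreceptors passed in a class, while none of the 15 SMADs and regulators or of the 20 targets and matrix genes did. The share of all genes that passed in at least 1 class is not given here, so these counts by role show no excess.

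Both storage and activation genes were lower in KO. *Itgb6*, the epithelial integrin subunit that frees TGF-β from its latent complex, gave 90.2, 88.4 and 104 CPM in WT libraries against 36.7, 31.4 and 42.5 in KO in LOH-like cells. The groups did not overlap (a log2 fold change of -1.34 with SE 0.13 and, in edgeR, an adjusted p of 0.000202), and the call held in all 19 alternatives. *Ltbp4*, which anchors the latent complex in the matrix, gave 535, 489 and 396 CPM in WT libraries against 165, 251 and 181 in KO in endothelial-like cells. These groups did not overlap either (a log2 fold change of -1.23 with SE 0.18, adjusted p 0.0131), and the call was lost only without KO replicate 1 (0.0814), KO replicate 3 (0.071) or both libraries with *Xist* (0.0721). Neither gene was tested within single clusters. Endothelial-like cluster 15 held 176, 112 and 170 of 604, 611 and 688 WT cells of its class, and 410, 370 and 325 of 1492, 965 and 682 KO cells. The part of such shares, and of the neutrophil markers given above for this class, was not tested. *Acvrl1*, a type I receptor known from endothelium, was higher in PC-like cells, at 1.67, 1.78 and 1.58 CPM in WT libraries against 7.15, 5.62 and 6.22 in KO. It rested on 13 and 24 UMIs, the call (a log2 fold change of 1.91, adjusted p 0.0355) was lost without each library, and the sum of 9 endothelial markers there was 13.5 to 19.5 CPM in WT libraries against 17.98 to 51.6 in KO, with overlap. Its part in this result was not tested.

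Read together by class, the called genes in LOH-like cells were *Tgfbr1*, higher, and *Itgb6*, lower. In the LOH-like class the median log2 fold change was 0.26 over the 6 tested members and -0.0036 over all tested genes. In the podocyte-like class these medians were 0.11 and 0.0042. The median over the members was negative in CNT-like (-0.21), macrophage-like (-0.16), DCT-like (-0.15, with none of 6 members positive), stromal and mesangial-like (-0.14) and DLH-like cells (-0.096). It lay between 0.0034 and 0.11 in PC-like, IC-like, endothelial-like and T and NK-like cells. In PCT-like cells only 1 member, *Tgfbr2*, was tested, with a log2 fold change of 0.53 (SE 0.60).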

How the data were processed

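Single-cell libraries of the renal cortex, 1 per mouse, were made by the authors on the BD Rhapsody platform. The authors deposited UMI counts, not normalized, for each barcode and gene; their pipeline (BD Rhapsody WTA Analysis) used mm10 and GENCODE vM23, and no barcode was removed. The other deposited columns hold gene symbols and barcodes. Libraries held 96382945 to 121198131 UMIs. The 9 genes and all lists were chosen with earlier results of these data known.

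Barcodes within 500 to 60000 UMIs, 200 to 8000 genes and 50% mitochondrial UMIs were kept, and since Scrublet's own threshold marked under 0.5% of cells, the top 6% of scores were removed in each library. Cells were clustered with scanpy 1.11.5 (2000 variable genes, 30 components, 15 neighbors, Leiden resolution 1.0) and clusters named from 117 marker genes. 2 clusters with 2245 cells remained unnamed. UMIs were summed per library and class and tested with edgeR 4.0.16 (R 4.3.3): TMM factors, filterByExpr at a minimum count of 10, and the quasi-likelihood test, two-sided, with Benjamini-Hochberg adjustment over all genes tested and a threshold of 0.05. The genotype effect of a class against the mean of the other classes was fitted over all classes with each mouse as a block. P-values of the tests within a class or cluster, or over all cells, measure the spread between mice. In the test between classes the mouse block takes out shifts that all classes of a mouse share. Those p-values therefore measure how the classes varied within mice. The procedure was tested on simulated counts. DESeq2 1.42.0, other scalings, filters, mitochondrial limits, clusterings and left-out libraries were the alternatives, and the tests within single clusters were added after seeing the data. Genes named in the text are the 9 members, of the 56 pathway genes those that passed, and for each member the 3 genes most like it among those with a class mean of at least 20 CPM, of which 1 is not reported here. Stress genes are named where they passed, chosen after their values were seen. Positions are from GENCODE on GRCm38, and promoters from RefSeq (GRCm38.p6).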

Additional observations from a re-analysis of the deposited data

Results flagged for a closer look

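The genotype effect on *Tgfbr2* differed between cell classes in opposite directions, by a test of the difference itself. In podocyte-like cells it differed from the mean effect of the other classes by -0.95 on the log2 scale (SE 0.17, edgeR adjusted p 0.000514), and all 3 KO libraries were lower. In CNT-like cells it was 0.74 above that mean (SE 0.17, adjusted p 0.0395), and all 3 KO libraries were higher. With each library left out in turn the first value stayed past the threshold, from -1.06 to -0.87, whereas the adjusted p of the CNT-like value ran from 0.0488 to 0.287.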

How the results depend on the processing

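Of 454 values of 28 single results under the other settings, 397 were counted as unchanged. For a tested value this means the same direction and side of the threshold. For the levels of the 9 genes it means a shift smaller than the SD over the 6 libraries. Of the tested values 42 lost the threshold, 11 gained it and 2 turned sign, while 2 levels moved by more than that SD. Leaving out 1 library cannot shift a level that far. The doublet setting equals the reported one, so neither kind of level value could count as moved. The count of members called within classes (4) was 9 with no filter on low counts, 2 at a limit of 30% mitochondrial UMIs, 2 without both libraries with *Xist*, and 2 to 4 with single libraries left out, 2 where replicate 1 of either genotype was missing. The count for the pathway list (3) was 5 with DESeq2, 41 with no filter, 6 with no mitochondrial limit, 5 with a block for the libraries with *Xist*, and 1 to 6 with single libraries left out, where leaving out KO replicate 1, 2 or 3 gave 1, 5 and 6. The count of members whose effect in a class differed from the other classes (2) was 1 with RLE factors, with no scaling factors, at resolution 2.0 and without both libraries with *Xist*, and 1 to 3 with single libraries left out, the value being 1 when replicate 1 or 2 of either genotype was missing. The share of all genes that passed under each of these settings is not given here. A shift in such a count is therefore not shown to be particular to the members or to the pathway list. *Smad7* turned sign in LOH-like cells at 30% mitochondrial UMIs (-0.0023) and, added after seeing the data, within cluster 4 (-0.11), and in CNT-like cells with no mitochondrial limit (0.23). The cause of these shifts was not tested. The class with the highest level was the same for 8 to 9 of the 9 genes, the exception being *Tgfb1*, for which macrophage-like cells led without KO replicate 2 or KO replicate 3 and with equal cell numbers.

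With the replicate block, the count of members called was 4 and that of the pathway list 6, again without the share over all genes. *Tgfbr2* in CNT-like cells was then lost (adjusted p 0.0666) and *Smad7* there passed (-0.64, adjusted p 0.0486). Deviations of same-numbered libraries correlated at 0.18, -0.10 and 0.32, and those of the other pairs at -0.44 to 0.28. Whether an equal number marks anything shared was not tested. Removing the top 6% of doublet scores in every library equals the reported setting, so this alternative could not change a call. Depth limits *Tgfb3*, tested in no class, and the PCT-like class, where 1 member was tested, most.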
